A study of Homo sapiens with 9 samples.

Results

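CD74, ICAM1, TNFSF13B, LAMP3 and IFITM1 are 5 interferon-linked genes of immune recognition among the 927 named genes of a glycosylation-centred array, which holds 1259 probe sets (groups of short probes that together read 1 transcript or a set of similar ones). The genes were listed by name, and each was read by 1 probe set whose RefSeq identifier mapped to it. They were listed because of their differences between the groups described here, so those differences are given with standard errors and without p-values. The arrays measured 2 lines of human colon carcinoma origin: T84 given interferon gamma at 100 U/ml for 24 hours, T84 without it, and Caco-2 without it, with 3 arrays in each group. Untreated T84 cells were at passage 68 and Caco-2 cells at passage 37, both 90% confluent. For the treated T84 cells the labels give neither passage nor confluence. No genetic change or other agent is named for any group. Nothing in the labels says whether the replicates were separate cultures, so the errors below measure only the spread between these arrays, which may be technical. The study asked which glycosylation genes could lie behind a sialylated CD44 epitope that interferon gamma raises in T84 cells and that Caco-2 cells lack.

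Interferon gamma is a cytokine of activated T and natural killer cells. It binds a receptor made of IFNGR1 and IFNGR2, which activates the kinases JAK1 and JAK2. Genes that respond can carry gamma-activated sites (GAS) in their promoters, or the interferon-stimulated response element (ISRE), which IRF1 and related factors bind. MHC class II genes and CD74 are further driven by the coactivator CIITA through a promoter module that includes a CCAAT-type Y box. In the gut, interferon gamma is known to let epithelial cells present antigen and hold leukocytes at their surface.

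The 5 genes act at different steps. CD74 is the invariant chain that chaperones MHC class II molecules and also a surface receptor for the cytokine MIF. ICAM1 is the adhesion molecule that leukocyte integrins such as LFA-1 bind. TNFSF13B encodes BAFF, a survival factor for B cells. LAMP3 is an inducible lysosomal membrane glycoprotein, known as DC-LAMP from mature dendritic cells. IFITM1 is an interferon-induced membrane protein that restricts the entry of viruses.

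RefSeq promoter sequences (build GRCh38.p14) were held for 4 of the 5 genes. They are shown because 3 of these 4 genes were far higher in treated than in untreated T84 cells, while the fourth, IFITM1, was high with or without interferon. Each line gives 250 bases before the start in the direction of the gene, or 30 bases around a match. Capitals mark matches to TTCNNNGAA (GAS), the Y box letters CCAAT on either strand, the TATA box and the ISRE core. The ISRE core searched is a repeat of GAAA with 2 bases of any kind between the copies. The search for a TATA box used the letters TATAAA.
CD74, chr5:150412911-150413160, minus strand: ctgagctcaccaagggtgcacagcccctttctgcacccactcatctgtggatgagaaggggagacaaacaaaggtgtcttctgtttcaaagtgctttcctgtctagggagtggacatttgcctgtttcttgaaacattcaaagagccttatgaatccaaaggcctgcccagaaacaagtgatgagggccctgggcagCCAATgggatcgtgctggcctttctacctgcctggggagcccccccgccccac
ICAM1, chr19:10270870-10271119, plus strand: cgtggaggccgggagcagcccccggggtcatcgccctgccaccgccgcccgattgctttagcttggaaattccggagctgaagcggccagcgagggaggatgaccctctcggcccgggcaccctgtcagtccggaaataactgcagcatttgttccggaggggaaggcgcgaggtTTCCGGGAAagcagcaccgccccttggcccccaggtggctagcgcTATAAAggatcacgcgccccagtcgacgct
TNFSF13B, 30 bases at chr13:108269637-108269666, plus strand: tacaaaaactGAAAGTGAAAtgaggaagac
IFITM1, chr11:313790-314039, plus strand: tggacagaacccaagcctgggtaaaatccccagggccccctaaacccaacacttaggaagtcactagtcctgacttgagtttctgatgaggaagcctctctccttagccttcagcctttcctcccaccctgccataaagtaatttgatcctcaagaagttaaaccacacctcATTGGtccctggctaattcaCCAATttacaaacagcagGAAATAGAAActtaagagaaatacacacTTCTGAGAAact
IFITM1, 30 bases across the start at chr11:314024-314053, plus strand: acacttctgaGAAACTGAAAcgacagggga

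In the ICAM1 promoter the GAS letters lay at positions -75 to -67 from the start and the TATA box at -30 to -25. CD74 had a single CCAAT, at -53 to -49, and neither GAS nor ISRE letters in its 300-base entry. TNFSF13B and IFITM1 also held CCAAT, and ICAM1 did not. TNFSF13B has 2 listed starts. Its ISRE core stood at -71 to -62 from the second start and at 19 to 28 after the first. IFITM1 held 2 ISRE cores, at -40 to -31 and across the start from -6 to 4, and GAS letters at -12 to -4 that overlap the second of these. In the last printed line the capitals mark the ISRE core alone. The NF-kappaB consensus searched was GGGRNNYYCC, where R is A or G and Y is C or T. Overlapping matches to these letters were found in CD74 at -20 to -9 and in none of the other 3 promoters searched. Letters that depart from it were not counted, such as tggaaattcc in the ICAM1 line, which differs at the first base. The lack of a match is thus not the lack of a site. Of 35116 promoter entries, 6.57% held the GAS letters within 250 bases before the start, 3.02% the ISRE core, 32.0% CCAAT on either strand, 10.7% TATAAA on either strand and 9.96% the NF-kappaB consensus. Both strands were searched, and a match is a run of letters, not a shown binding site.

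**Figure D1:**
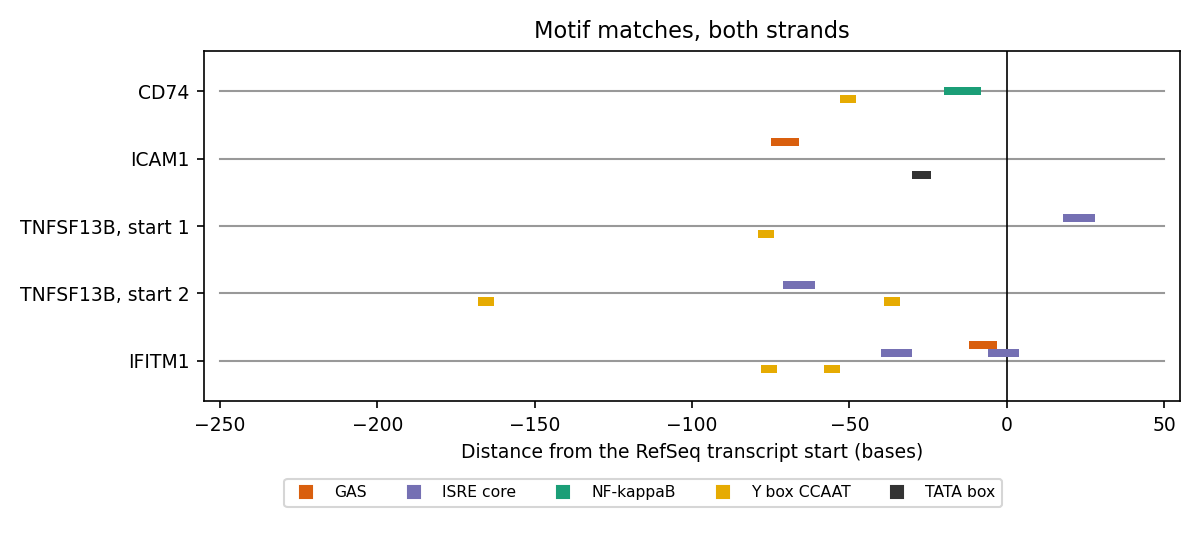
Matches to 5 motifs along the promoters of CD74, ICAM1, TNFSF13B (2 starts) and IFITM1, with distance from the transcript start in bases on the x axis and the start as a vertical line. Coloured blocks are matches on either strand, offset vertically by motif. ICAM1 has a GAS block upstream of its TATA block, TNFSF13B and IFITM1 have ISRE blocks, and CD74 has a CCAAT block.

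Values throughout are log2 signals, so 1 unit is a doubling. Array medians lay between 6.70 and 6.80, and correlations across probe sets within a group between 0.987 and 0.999. Interferon treatment of T84 separated 10.2% of probe sets at 0.05 after limma's adjustment, with 55 up and 73 down. Against Caco-2, 45.6% passed for treated T84 (244 higher and 330 lower) and 43.7% for untreated T84 (245 and 305). Centring each array on 51 ribosomal protein probe sets gave 56 higher and 47 lower in the first comparison. In the other 2 it gave 760 and 223, and 601 and 223. This scaling moved the median of all probe sets against Caco-2 from 0.02 to 0.28 for treated and to 0.21 for untreated T84. Treated replicate 3, untreated T84 replicate 3 and Caco-2 replicate 1 deviated together from their group means (correlations of 0.48 to 0.76 across probe sets). Of 14 intestinal epithelial markers, only LGALS4, MUC13 and MUC2 were measured. LGALS4 averaged 12.47 in treated T84, 13.01 without treatment and 6.91 in Caco-2. MUC13 averaged 12.38, 11.98 and 9.92 in that order, and MUC2 7.20, 7.03 and 6.63.

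CD74 separated the treated T84 arrays from all others. Its signal in treated T84 was 10.87, 10.74 and 10.79 in replicates 1 to 3. In untreated T84 the values were 7.21, 7.19 and 7.37, and in Caco-2 they were 8.61, 8.57 and 8.39. All treated arrays lay above all others, Caco-2 stood in the middle, and untreated T84 was lowest, with no overlap between any pair of groups. Treated T84 exceeded untreated T84 by 3.54 ± 0.08 log2 units (SE), or 11.7-fold, with a gap of 3.36 between the nearest arrays. It exceeded Caco-2 by 2.28 ± 0.08. Untreated T84 was below Caco-2 by a log2 difference of -1.27 ± 0.08, a 2.41-fold gap in the other direction. The probe set of CD74 carries a suffix for sequence shared among transcripts.

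Few genes of antigen presentation were on the array. Of 37 listed genes, CANX and CD44 were measured, and neither passed in treated against untreated T84 (limma; 1 at an unadjusted p below 0.05, and CD44 at an adjusted p of 0.0207 with array weights). CD44, which pairs with CD74 as a signalling co-receptor for MIF, averaged 9.99 ± 0.09 in treated T84, 10.28 ± 0.12 in T84 left untreated and 5.60 ± 0.21 in Caco-2 (SD, n = 3). CD44 and CD74 were thus ordered differently, since CD44 was lowest in Caco-2 and CD74 in untreated T84.

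ICAM1 followed the same order as CD74. Treated T84 arrays read 10.94, 10.87 and 10.72. The untreated T84 arrays read 7.58, 7.58 and 7.87, and the Caco-2 arrays 8.62, 8.25 and 8.02. The treated arrays stood well apart, while untreated T84 replicate 3 came within 0.15 of Caco-2 replicate 3. The difference of treated from untreated T84 was 3.17 ± 0.15 (SE), or 8.97-fold, and that from Caco-2 was 2.54 ± 0.15, or 5.83-fold. Untreated T84 differed from Caco-2 by -0.62 ± 0.15, with an SD of 0.30 among the Caco-2 arrays. Without Caco-2 replicate 1, the highest of them, that last difference was -0.46, and over all single arrays left out it ran from -0.76 to -0.46.

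Other adhesion genes did not share this pattern in treated against untreated T84. Of 15 measured from a list of 38, none passed as higher and 1 as lower, against 4.37% and 5.8% of all probe sets, and the list's median was -0.01. The gene that passed was ICAM3, a relative of ICAM1 found mainly on leukocytes, at -0.42 ± 0.11 (SE; limma adjusted p = 0.0479, n = 3 per group). That call was lost in 12 of 21 alternatives, 1 of them the stricter threshold, at adjusted p values up to 0.164. Replicates of ICAM3 read 8.53, 8.58 and 8.51 treated, 8.99, 8.81 and 9.10 untreated, and 9.03, 8.64 and 8.69 in Caco-2. ICAM2, a constitutive ligand of the same integrin and named here after its values were seen, had a difference of 0.24 ± 0.12 (adjusted p = 0.335 in limma, n = 3 per group). It was higher in both T84 groups than in Caco-2, by 2.90 ± 0.12 and 2.66 ± 0.12 (adjusted p of 1.7e-07 and 3.27e-07 in limma). The vascular genes VCAM1, SELE and SELP, also named after their values were seen, had differences of -0.04, 0.01 and 0.08. Their group means in T84 ran from 3.52 to 5.01. Against Caco-2, 3 of the 15 adhesion genes were higher and 3 lower in each T84 group. Of all 1259 probe sets, 19.4% were higher and 26.2% lower for treated T84, and 19.5% and 24.2% for untreated T84.

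TNFSF13B was the most variable of the 5 genes in both T84 groups. Its treated arrays read 9.51, 9.44 and 8.71, its untreated T84 arrays 6.14, 5.76 and 5.52, and its Caco-2 arrays 5.29, 5.36 and 5.14. Treated replicate 3 was the lowest of the treated arrays, yet lay 2.57 above the highest untreated one. The SD was 0.44 in treated T84, larger than that of 98.6% of probe sets there, and 0.31 in untreated T84, larger than that of 96.2%. Treated T84 exceeded untreated T84 by 3.42 ± 0.23 (SE), or 10.7-fold, and Caco-2 by 3.96 ± 0.23, or 15.5-fold. Without treated replicate 3 the difference from untreated T84 was 3.67. Untreated T84 and Caco-2 were closer, at 0.54 ± 0.23, with 0.16 between their nearest arrays. That standard error is pooled with the treated arrays, and it was 0.16 when only the 6 arrays compared were fitted. This probe set too is shared among transcripts.

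The receptors of BAFF (TNFRSF13B, TNFRSF13C and TNFRSF17) and its relative TNFSF13 were not analysed here. From 39 other genes of the TNF family and its receptors, TNFRSF9 and TNFRSF25 were measured. Neither passed in any comparison in limma on the values as deposited, and neither had an unadjusted p below 0.05. With quantile normalization, and with ribosomal centring, 1 of them passed as higher in each T84 group against Caco-2. Their differences of treated from untreated T84 were 0.04 ± 0.07 and -0.11 ± 0.10 (SE).

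LAMP3 combined a difference between the lines with a smaller one after interferon. It read 12.05, 11.86 and 11.93 in treated T84, 10.54, 10.99 and 10.79 in T84 left untreated, and 7.33, 7.31 and 7.19 in Caco-2. The groups were ordered without overlap from Caco-2 up to treated T84, and untreated T84 already lay far nearer to treated T84 than to Caco-2. Treated T84 exceeded untreated T84 by 1.17 ± 0.11 (SE), or 2.25-fold. The difference of untreated T84 from Caco-2 was 3.50 ± 0.11, or 11.3-fold, and that of treated T84 was 4.67 ± 0.11, or 25.4-fold. Untreated T84 replicate 1 was the lowest of its group, and without it the interferon difference was 1.05.

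The constitutive lysosomal relatives of LAMP3 gave a mixed picture. LAMP1 averaged 11.26 ± 0.03 in treated T84, 11.28 ± 0.11 in T84 left untreated and 11.35 ± 0.14 in Caco-2 (SD, n = 3), and passed in no comparison. LAMP2, the other measured lysosomal membrane gene of 9 listed, had 2 probe sets. The brighter averaged 9.19, 9.38 and 9.39 in the same order of groups and stood below its Caco-2 level in treated T84, by a log2 difference of -0.20 ± 0.06 (limma adjusted p = 0.034, n = 3 per group). That call was lost in 12 of 21 alternatives, 1 of them the stricter threshold, and its sign turned, to 0.06, with ribosomal centring. The other probe set averaged 9.43 and 9.41 in treated and untreated T84 and 8.80 in Caco-2. Unlike LAMP3, it had no clear step between the T84 groups, at 0.02 ± 0.19 (SE; adjusted p = 0.989 in limma). It was higher than in Caco-2 by 0.64 ± 0.19 in treated and 0.62 ± 0.19 in untreated T84 (SE; adjusted p of 0.0229 and 0.0277 in limma, n = 3 per group). For treated T84, the LAMP2 probe sets thus went in opposite directions against Caco-2. In treated against untreated T84 neither relative passed (1 of 2 at an unadjusted p below 0.05, and LAMP2 at an adjusted p of 0.0123 with array weights in limma).

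IFITM1 differed mainly between the cell lines. It read 14.29, 14.28 and 14.32 in treated T84, 14.17, 14.12 and 14.21 in T84 left untreated, and 10.71, 10.34 and 10.28 in Caco-2. All 6 T84 arrays lay together, at least 3.41 above every Caco-2 array. Untreated T84 exceeded Caco-2 by 3.72 ± 0.10 (SE), or 13.2-fold, and treated T84 by 3.85 ± 0.10, or 14.4-fold. Treated and untreated T84 differed by 0.13 ± 0.10, and the arrays did not overlap, by a margin of 0.07. That standard error is pooled with the Caco-2 arrays, whose SD was 0.23. The T84 groups spread less, with SDs of 0.02 after treatment and 0.04 without it. When only the 6 T84 arrays were fitted, the difference of 0.13 had a standard error of 0.04. Quantile normalization reduced that difference to 0.01, and ribosomal centring raised it to 0.20. In T84 the IFITM1 probe set ranked 3 or 4 from the top of 1259 on every array, where the highest value was between 14.3 and 14.6. Its nearness to the top of the scale was measured, and the part of this in the small difference was not tested.

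IFITM2, a close relative that acts in endosomal membranes, gave another picture. Its arrays read 11.02, 10.93 and 10.91 in treated T84, 10.56, 10.33 and 10.66 in T84 left untreated, and 11.23, 10.97 and 10.85 in Caco-2. Treated T84 was higher than untreated T84 by 0.43 ± 0.11 (SE; limma adjusted p = 0.0479, n = 3 per group). The call was lost in 10 of 21 alternatives, 1 of them the stricter threshold, at adjusted p values up to 0.146. Untreated T84 was lower than Caco-2, by a log2 difference of -0.50 ± 0.11 (adjusted p = 0.00663 in limma, n = 3 per group), whereas IFITM1 was 13.2-fold higher there. The IFITM2 probe set carries the suffix for possible cross-hybridisation, so it may read related transcripts.

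**Figure D2:**
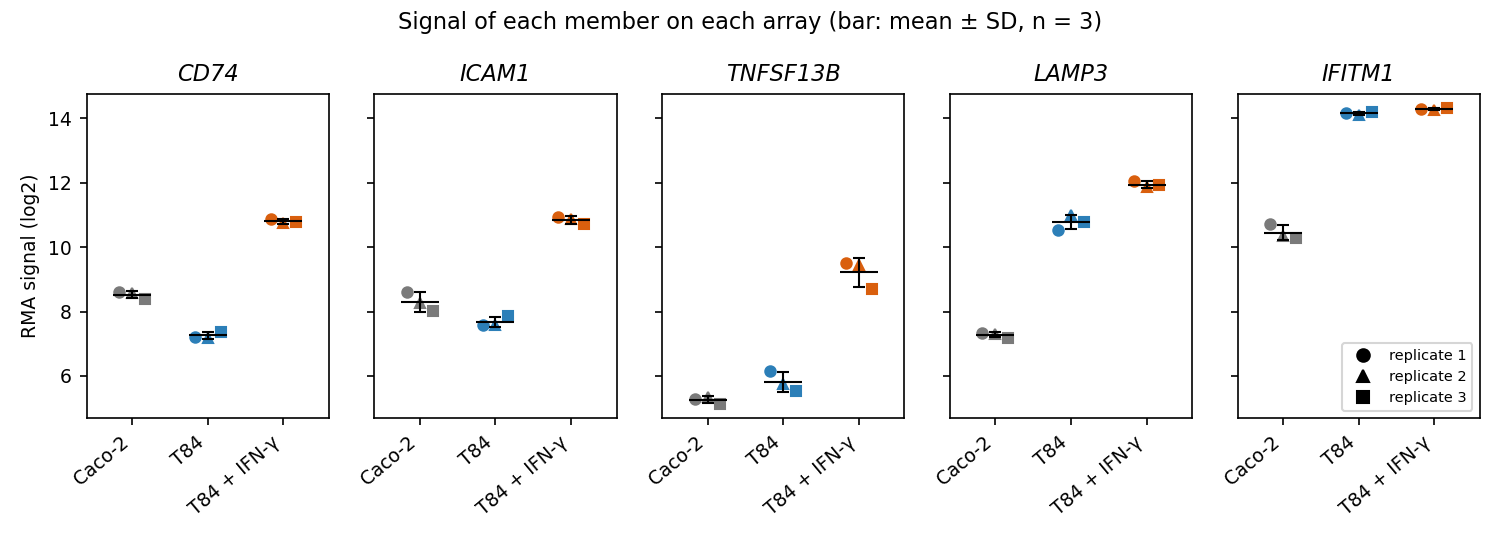
RMA signal (log2) of CD74, ICAM1, TNFSF13B, LAMP3 and IFITM1 on each of 9 arrays, with symbols for replicate numbers, wide bars for group means and error bars for SD (n = 3). CD74 and ICAM1 are lowest in untreated T84 and highest in treated T84, whereas IFITM1 stays between 14.1 and 14.3 in both T84 groups and lies near 10.4 in Caco-2.

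Side by side, the 5 genes fell into different orders. CD74 and ICAM1 ran from untreated T84 through Caco-2 to treated T84. TNFSF13B, LAMP3 and IFITM1 ran from Caco-2 through untreated T84 to treated T84, with the upper step small for IFITM1 and the lower step small for TNFSF13B. In treated against untreated T84 all 5 had arrays that did not overlap and were higher, which holds for 9.61% of all probe sets. In treated T84 against Caco-2 all 5 were again higher without overlap, as were 24.8% of all probe sets. For untreated T84 against Caco-2, 3 were higher without overlap (23.7% of all probe sets) and 2 lower (25.8%). These counts restate the differences that chose the genes. Ordered by difference in treated against untreated T84, CD74 ranked 4, TNFSF13B 5, ICAM1 6, LAMP3 18 and IFITM1 169 of 1259 probe sets. TNFSF13B came ahead of CD74 without treated replicate 3 and without untreated T84 replicate 1.

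**Figure D3:**
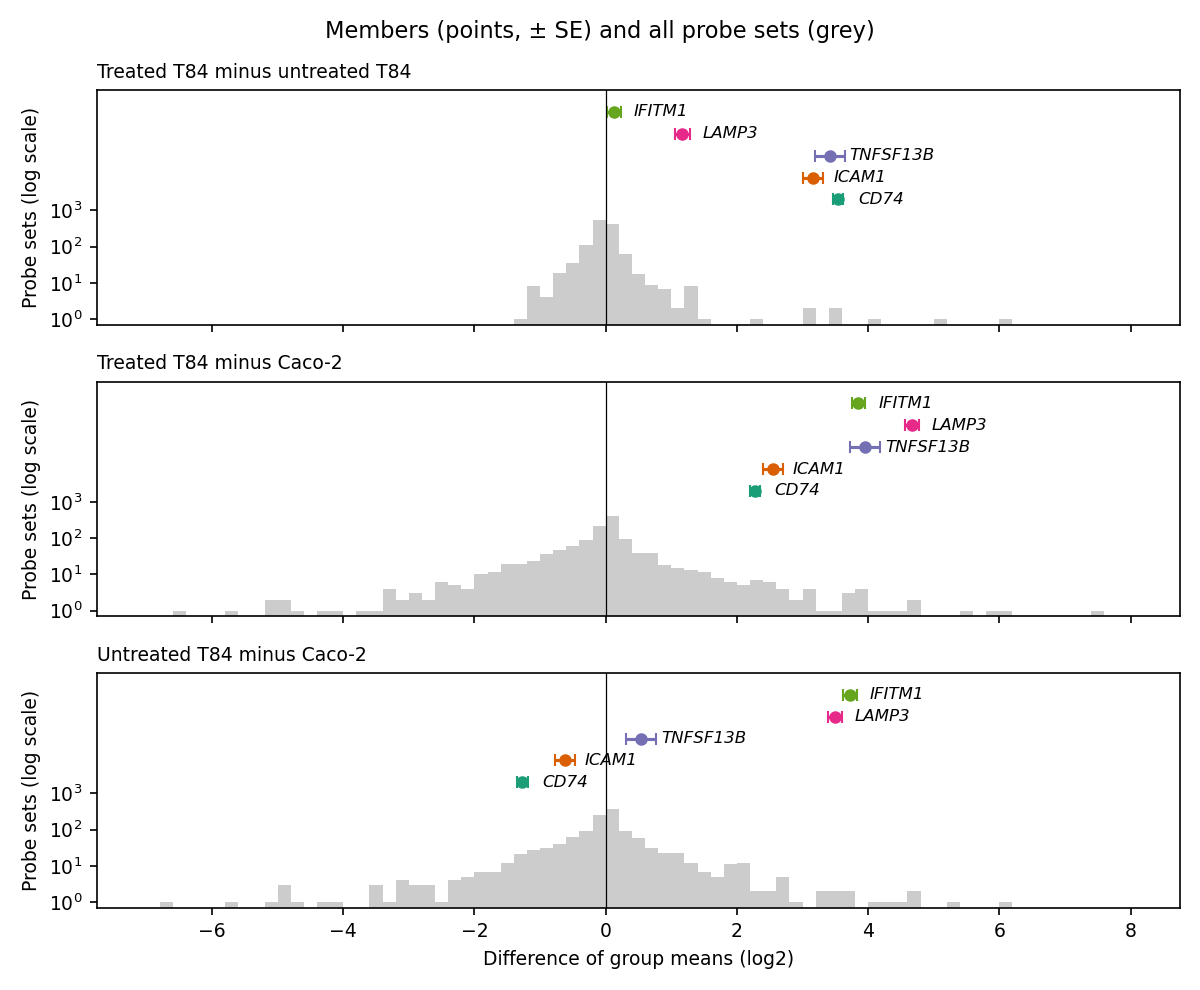
Differences of group means (log2) for the 5 genes (points with SE) above histograms of all 1259 probe sets (grey, counts on a log scale), for each pair of groups. The height of a point carries no value; CD74, TNFSF13B and ICAM1 lie between 3.17 and 3.54 in the upper panel, and CD74 and ICAM1 lie below 0 in the lower one.

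The highest replicate of each member was counted beside that of all probe sets. Caco-2 replicate 1 was the highest of its group for 4 of the 5 genes, and it was so for 64.5% of all probe sets. Treated replicate 1 was the highest for 4 of 5, against 49.5% of all probe sets. Untreated T84 replicate 3 was the highest for 3 of 5, against 42.4%. With 5 genes, these counts say little about the members beyond those shares. Leaving out the 3 arrays that deviated together gave differences between treated and untreated T84 of 3.61 for CD74, 3.33 for ICAM1, 3.53 for TNFSF13B, 1.19 for LAMP3 and 0.14 for IFITM1. For untreated T84 against Caco-2 the values were then -1.28, -0.56, 0.70, 3.52 and 3.83 in the same order of genes. This check was chosen after seeing the data, and each of these values kept its sign.

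Likeness of profiles was measured as the root mean square difference between 2 genes over the 9 arrays, after subtracting each gene's own mean. ICAM1 was the nearest of 926 genes to CD74, at 0.29 log2 units, where the median gene was at 1.49, and CD74 was the nearest to ICAM1. TNFSF13B came next for both, at 0.87 and 0.68, and then the membrane mucin gene MUC4, at 0.89 and 0.74. Nearest to TNFSF13B was CX3CL1, a membrane-anchored chemokine, at 0.52, followed by ICAM1 and then CXCL11, a T cell attracting chemokine, at 0.84. LAMP3 was nearest to the chemokine CCL5, at 0.42, and then to the cell surface proteoglycan GPC4 at 0.46 and to IFITM1 at 0.47. For IFITM1 the nearest were GPC4 (0.16), the stress cytokine GDF15 (0.16) and the secreted galectin ligand LGALS3BP (0.26). CD74 and IFITM1 were the farthest apart of the 10 pairs among the members, at 2.08. The same 3 genes were nearest to each member when only the 3 group means were used.

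GPC4 illustrates the profile shared with IFITM1. It read 8.67, 8.64 and 8.67 in treated T84, 8.48, 8.48 and 8.61 in T84 left untreated, and 4.73, 5.01 and 4.61 in Caco-2. CX3CL1, next to TNFSF13B, read 10.60, 10.55 and 10.46 in treated T84, 8.18, 8.11 and 8.22 in T84 left untreated, and 7.21, 6.71 and 6.75 in Caco-2. Both genes keep the order from Caco-2 up to treated T84. The step from untreated to treated T84 was 2.37 for CX3CL1 and 0.14 for GPC4, which follows from their having been picked for likeness to these members.

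Other interferon-induced genes gave the setting for the members. Of 13 measured from a list of 62, 10 rose in treated against untreated T84, none fell and 3 did not pass, against 4.37% of all probe sets higher. The median of the list was 0.61, beside -0.01 over all probe sets. The list was drawn up with results of these arrays known, so the count is not independent evidence of its direction. The 4 with the smallest adjusted p were the chemokines CXCL10 (5.11 ± 0.10, SE), CXCL9 (6.12 ± 0.21), CX3CL1 (2.37 ± 0.12) and CXCL11 (4.04 ± 0.29), at limma adjusted p values of 1.91e-08 to 5.4e-05 (n = 3 per group). The CXCL9 means in untreated T84 and Caco-2 were close to each other, at 5.79 and 5.74. Smaller rises were seen for the shared cytokine receptor chain IL2RG at 0.96 ± 0.09 and the proteasome activator PSME1 at 0.61 ± 0.10. The same list had 10 higher and 1 lower in treated T84 against Caco-2, and 8 higher and 1 lower in untreated T84 against Caco-2, with medians of 3.10 and 1.28. Of all probe sets, 19.4% and 19.5% were higher in these comparisons, and 26.2% and 24.2% lower. The last 2 comparisons share the Caco-2 arrays.

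Neither interferon gamma receptor gene differed past the test between treated and untreated T84. IFNGR1, the ligand-binding chain, averaged 10.85 ± 0.36 and 10.86 ± 0.17, and IFNGR2 10.31 ± 0.06 and 10.34 ± 0.06 (SD, n = 3), with limma adjusted p values of 0.993 and 0.878. In Caco-2 they averaged 9.78 ± 0.56 and 9.88 ± 0.10. Both were higher in untreated T84 than in Caco-2, by 1.08 ± 0.28 and 0.46 ± 0.06 (SE; limma adjusted p of 0.0127 and 0.000406, n = 3 per group). Of 6 measured genes for interferons and their receptors, none passed in treated against untreated T84 by limma, where 10.2% of all probe sets did. At an unadjusted p below 0.05 there was 1, IFNAR2, which reached a limma adjusted p of 0.0263 with array weights and 0.0300 after quantile normalization. The value was 0.0456 without treated replicate 3 and 0.0489 without untreated T84 replicate 1. A dimmer IFNAR2 probe set had a difference of 0.15 ± 0.14 (SE; limma adjusted p = 0.664, n = 3 per group). The interferon genes themselves, IFNG and IFNB1, lay between 4.29 and 4.73 in all 3 groups. JAK1, JAK2 and IRF1 were not analysed here.

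**Figure D4:**
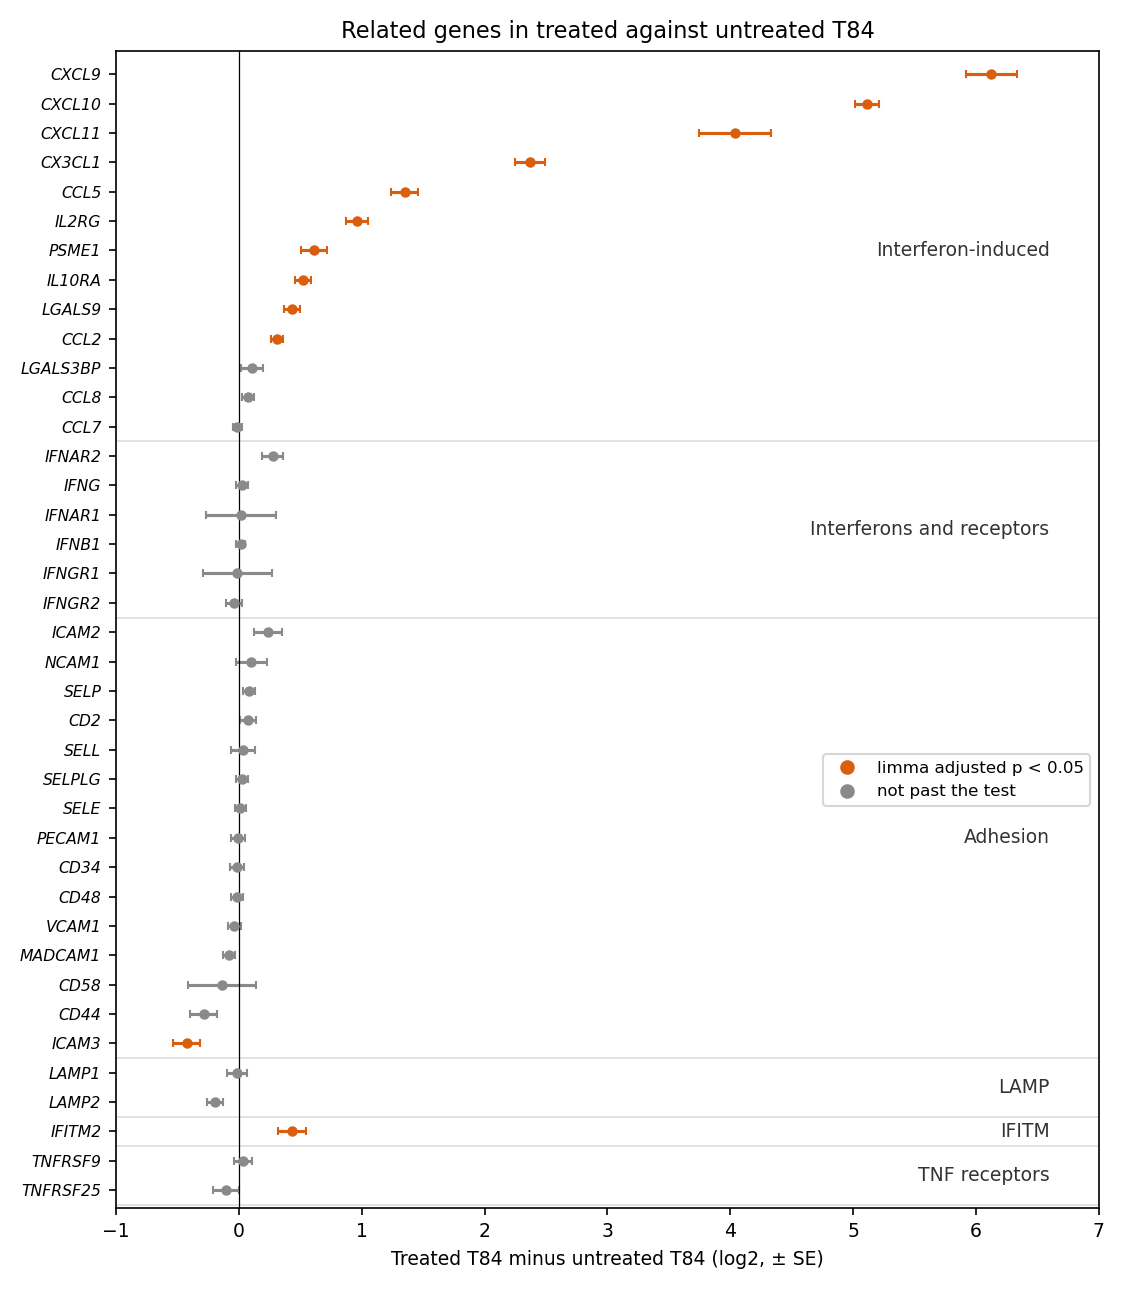
Differences of treated from untreated T84 (log2, with SE) for related genes outside the 5 members, grouped by list, with orange for a limma adjusted p below 0.05. CXCL9 reaches 6.12, 10 of the 13 interferon-induced genes are orange, and of 15 adhesion genes ICAM3 alone is orange, at -0.42.

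CD74, TNFSF13B and LAMP3 are also genes of leukocytes, so markers of such cells were read beside them. Of 22 listed leukocyte and antigen-presenting cell markers 8 were measured, and their group means lay between 4.46 and 6.76. Their summed linear signal ran from 515 to 516 in treated T84, from 483 to 520 in T84 left untreated and from 469 to 525 in Caco-2. None of the 8 passed in treated against untreated T84 by limma, where 10.2% of all probe sets did, with 1 at an unadjusted p below 0.05. So few markers give little information at that share. The marker below 0.05 unadjusted was CD83, like LAMP3 a gene of mature dendritic cells. Its difference was 0.24 ± 0.08 (SE; adjusted p = 0.153 in limma, n = 3 per group). CD83 passed without the 3 arrays that deviated together (0.0276) and with array weights (0.0331). In each T84 group against Caco-2, 1 of the 8 was higher, CD22, and 1 lower, CCR7, both named after their values were seen. Of all probe sets, 19.4% were higher and 26.2% lower for treated T84, and 19.5% and 24.2% for untreated T84. For treated T84 the call of CD22 was lost in 10 of 20 alternatives and that of CCR7 in 6. For untreated T84 that of CCR7 was lost in 10 of 20. Of 11 fibroblast and endothelial markers 6 were measured, and none passed in treated against untreated T84 by limma (0 at an unadjusted p below 0.05). Against Caco-2, 2 of the 6 were lower in each T84 group, LUM and PECAM1, both named after their values were seen. Of all probe sets, 26.2% were lower there for treated and 24.2% for untreated T84, so 2 of 6 gives little information. The summed linear signal of the 6 ran from 173 to 184 in treated T84, from 174 to 180 without treatment and from 229 to 243 in Caco-2. The part of this in the differences of the 5 genes between the lines was not tested. RNA came from whole cultures, so more cells with a transcript and more transcript per cell cannot be told apart.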

How the data were processed

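Total RNA of 9 samples was labelled as biotinylated cRNA by an Affymetrix protocol, per the labels' protocols. The deposited values are log2 signals per probe set, made with RMA per the submitters' processing notes; for its version, its filters and the genome build, nothing is given in the sources used here. Values were used as deposited. RefSeq identifiers without their version gave 1 symbol to 1043 of 1259 probe sets (927 genes). Where a gene had several, the probe set of highest mean stood for it. One limma 3.58.1 model (R 4.3.3) with group as factor was fitted to all 9 arrays (6 residual and 2.12 prior degrees of freedom), with p-values adjusted by Benjamini-Hochberg across all 1259 and called at 0.05, and was tested on simulated data. Standard errors were pooled over all groups, so a probe set has the same one in every comparison of this model. Precision is limited by having 3 arrays per group.

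The 5 genes, the gene lists and the rule for named genes were chosen with earlier results of these data known. The rule named the members, the 3 nearest profiles of each, fixed partners, and up to 4 genes of a list by adjusted p. No batch was given. Promoters are RefSeq's (GRCh38.p14). Alternatives covered the arrays fitted, a replicate block, moderation, array weights, scaling, dim probe sets, the threshold, the probe set of a gene, the measure of likeness and the promoter window. Python 3.11.15, pandas 2.3.3 and matplotlib 3.10.9 were used.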

Additional observations from a re-analysis of the deposited data

How the results depend on the processing

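All 15 differences of the 5 genes (3 comparisons each) kept their sign in every alternative run. Of 270 values, 264 moved by less than 1 SD between replicates, but many of these could not have moved further. The other 6 were IFITM1 between treated and untreated T84 (0.01 with quantile normalization, 0.20 with ribosomal centring) and, with ribosomal centring, CD74, LAMP3 and IFITM1 in treated T84 against Caco-2 (2.53, 4.92 and 4.11) and CD74 in untreated T84 against Caco-2 (-1.08). Fitting only the 6 arrays compared, adding a replicate block or changing the moderation leaves a difference of group means unchanged. Leaving out 1 of 3 arrays cannot move a group mean by 1 SD. The count of 264 thus says little about how stable the differences are. Over all probe sets, calls between treated and untreated T84 numbered 128, but 231 with array weights and 79 at an adjusted p below 0.01. Calls in treated T84 against Caco-2 numbered 574, but 983 with ribosomal centring, and the cause was not tested. With single arrays left out the 3 counts ran from 86 to 178, from 521 to 640 and from 480 to 600. With the replicate block they were 109, 534 and 499, and the calls of IFITM2 (adjusted p = 0.0627) and ICAM3 (0.0743) between treated and untreated T84 were lost in limma. The replicate numbers did not pair the arrays over all 3 groups: same-numbered arrays deviated together in some pairs and apart in others (correlations from -0.64 to 0.56). Between treated and untreated T84 these correlations were 0.39, -0.02 and 0.56 for replicates 1 to 3. The labels do not say whether the T84 arrays were paired by number, and these values cannot settle it. Counts for the interferon-induced list stayed within 1.5 times in all 66 values.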
